A study of Homo sapiens with 12 samples.

Results

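The 32 nucleotide synthesis and salvage genes described here were taken by symbol from a list of enzymes and 1 transporter, and all 32 were among the 26485 symbols counted in the files and among the 13619 genes with enough reads to be tested. They comprise 5 genes of de novo pyrimidine synthesis, 11 of de novo purine synthesis, 5 of deoxynucleotide synthesis, 3 nucleotide kinases and 8 of salvage and transport. DLD1, a human cell line established from a colon adenocarcinoma, was exposed for 1 h to TCDD, kynurenine or CH223191 at 10 µM each, or to the vehicle DMSO, and its poly(A) RNA was sequenced. The dioxin TCDD strongly activates the aryl hydrocarbon receptor (AHR), a transcription factor switched on by small molecules, kynurenine arises from tryptophan and is held to be a weaker ligand made by cells, and CH223191 blocks the receptor. There were 12 libraries, 3 for each group, and all come from 1 cell line. Separate cultures are not stated for the replicates, so p-values measure only the spread between these libraries, which may be technical.

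Cells make nucleotides by 2 routes. De novo synthesis builds the pyrimidine ring and then attaches it to an activated ribose, or builds the purine ring step by step on that ribose, and it draws on glutamine, aspartate, glycine and folate-bound one-carbon units. Salvage takes up or recovers nucleosides and bases and phosphorylates them again, and ribonucleotide reductase turns part of the ribonucleotides into the deoxynucleotides needed for DNA. Proliferating colon cancer cells are known for a high demand on both routes, and several of these enzymes are drug targets, among them TYMS for fluoropyrimidines, DHODH for brequinar and IMPDH1 and IMPDH2 for mycophenolic acid.

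Libraries held 21397703 to 28247146 reads counted on genes, with a median of 26666641, and levels are given as CPM, reads scaled to a common library total. The lowest member, DHODH, had 247 to 341 reads in a library, and RRM2, among the highest, had 11839 to 18465. CYP1A1, the classical AHR target, averaged 428 ± 15.9 CPM with TCDD, 10.1 ± 1.01 CPM with kynurenine and 0.52 ± 0.188 CPM with CH223191, against 3.22 ± 0.142 CPM in DMSO (SD, n = 3 each). The AHR targets CYP1B1, AHRR and TIPARP were also called higher with TCDD and lower with CH223191. With kynurenine they did not follow CYP1A1: CYP1B1 averaged 97.5 ± 4.26 CPM, against 126 ± 1.56 CPM in DMSO (log2 fold change -0.37, adjusted p = 2.44e-07), and TIPARP 38 ± 1.59 CPM, against 44 ± 0.657 CPM in DMSO (-0.21, adjusted p = 0.0271). The TIPARP call failed without kynurenine replicate 1 or 2 or any one DMSO library (adjusted p = 0.0606 to 0.149). AHRR averaged 5.16 ± 0.632 CPM with kynurenine, against 6.25 ± 0.354 CPM in DMSO, and did not pass (adjusted p = 0.553). All 9 listed markers of colon epithelium were measured, though VIL1 (49 to 83 reads in a library) and LGALS4 (5 to 18) had few reads. Their summed level was 9000 to 9180 CPM with TCDD, 9720 to 10000 CPM with kynurenine and 9420 to 9670 CPM with CH223191, against 9220 to 9740 CPM in DMSO, so the TCDD libraries lay just below those in DMSO. The part of this in the results was not tested. KRT8, with 101806 to 138318 reads in a library, weighs most in that sum. CDX2 and CDH17 went the other way with TCDD, although those libraries held fewer reads. CDX2 had 3852 to 3930 reads with TCDD, against 3231 to 3391 in DMSO, and CDH17 2974 to 3307, against 2536 to 2841. Listed fibroblast markers summed to 0.524 to 1.3 CPM with DCN at 0, endothelial markers to 2.3 to 4.11 CPM with KDR and EMCN at 0, and immune markers to 6.14 to 16.2 CPM. In each treated group the range of each of these 3 sums overlapped that in DMSO. Pairs of libraries within a group differed by 1.76 to 4.65 times Poisson noise, so no library was a copy of another, and the widest differences involved kynurenine replicate 1.

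The sequences just upstream of 4 of these genes are shown because CTPS1, RRM2 and PPAT were among the members lowered with CH223191, and SLC29A1 was the member called lower with each of the 3 compounds. They are RefSeq windows on GRCh38.p14, written 5′ to 3′ on the gene's strand and ending at the base before the RefSeq start. CTPS1 lies at chr1:40979446-40979695 (plus strand), RRM2 at chr2:10122489-10122738 (plus strand) and SLC29A1 at chr6:44223345-44223594 (plus strand), with 250 bases each. PPAT and PAICS, neighbours that are read away from each other on chromosome 4, are 125 bases apart by their GENCODE bounds, and all of that gap is shown on the minus strand as chr4:56435616-56435740. Capitals mark GCGTG, the core of the DNA element that AHR and ARNT bind, in either orientation (CACGC on the strand shown).
CTPS1: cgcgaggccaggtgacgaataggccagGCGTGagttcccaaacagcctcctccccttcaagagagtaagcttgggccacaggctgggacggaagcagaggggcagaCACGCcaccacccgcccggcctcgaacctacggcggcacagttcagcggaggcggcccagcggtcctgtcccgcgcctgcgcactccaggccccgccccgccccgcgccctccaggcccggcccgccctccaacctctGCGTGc
RRM2: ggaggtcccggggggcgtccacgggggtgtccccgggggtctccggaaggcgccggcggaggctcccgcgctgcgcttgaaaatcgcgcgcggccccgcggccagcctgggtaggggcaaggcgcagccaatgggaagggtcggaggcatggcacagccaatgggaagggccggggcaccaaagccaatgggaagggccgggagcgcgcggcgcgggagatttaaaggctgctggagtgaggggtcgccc
SLC29A1: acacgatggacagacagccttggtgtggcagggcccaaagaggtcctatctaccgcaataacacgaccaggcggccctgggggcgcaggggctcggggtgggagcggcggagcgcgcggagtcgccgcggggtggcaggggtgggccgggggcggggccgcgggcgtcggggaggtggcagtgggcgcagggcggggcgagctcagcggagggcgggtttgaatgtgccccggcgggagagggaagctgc
PPAT: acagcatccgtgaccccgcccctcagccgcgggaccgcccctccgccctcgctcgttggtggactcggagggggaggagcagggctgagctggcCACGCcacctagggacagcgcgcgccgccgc
The CTPS1 window held 3 matches and the PPAT window 1, and those of RRM2 and SLC29A1 held 0. Over the 250 bases upstream of the start, 29 of the 32 members had a window in the table, and ADSL, IMPDH2 and RRM2B had none. On either strand, GCGTG stood in 18 of these 29 windows (62.1%), against 32.2% of all 35116 windows of the table. It was in 6 of the 11 windows of members lower with CH223191 (54.5%), against 12 of the 18 others (66.7%). CACGTG, the E-box that MYC and MAX bind, stood in 4 of the 29 (13.8%), 2 of the 11 (18.2%) and 2 of the 18 (11.1%), against 6.34% of all windows. Each member gave the window nearest its canonical start, while all windows of the table include several for some genes. The sets were not matched for GC content, and the differences in share were not tested. The motifs cannot lie inside each other, and a match describes these letters only.

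TCDD lowered 7 of the 32 genes and raised 1, kynurenine lowered 1, and CH223191 lowered 11 and raised 1 relative to DMSO, by edgeR's quasi-likelihood F test with Benjamini-Hochberg adjustment over all genes and an adjusted p under 0.05 as the threshold. The changes were small: the largest was a fall of 18.7%, in CTPS1 with CH223191. With TCDD, 25% of members were called, against 11.7% of all genes tested. The 7 lower members were 21.9%, against 5.83% of all genes, and the 1 higher member was 3.12%, against 5.91%. With kynurenine, the 1 lower member was 3.12%, against 0.294% of all genes called in either direction and 0.14% called lower. With CH223191, 37.5% of members were called, a share near the 32.8% of all genes. Its direction was uneven, with 34.4% lower against 16.9% of all genes, and 3.12% higher against 15.9%. These backgrounds include genes with few reads, which pass less readily. In a fit of the 10402 genes with at least 5 CPM in 3 libraries, 15.6% were called with TCDD, 0.394% with kynurenine and 40% with CH223191.

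The medians lay on the lower side with each compound. The median log2 fold change of the 32 members was -0.06 with TCDD, -0.02 with kynurenine and -0.08 with CH223191, against all-gene medians of 0.000842, -0.00303 and 0.00097. Members below 0 numbered 26, 21 and 23 of 32, against 49.7, 51.9 and 49.7% of all genes. The 3 comparisons share the DMSO libraries, so these counts are not independent of each other. The TCDD and DMSO libraries did not overlap for 14 members, against 27.8% of all genes. The kynurenine and DMSO libraries did not overlap for 4 members, against 11.4% of all genes, and the CH223191 and DMSO libraries for 19, against 43.4%. In these bulk libraries, fewer cells that express a gene and less RNA of it per cell cannot be told apart.

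**Figure D1:**
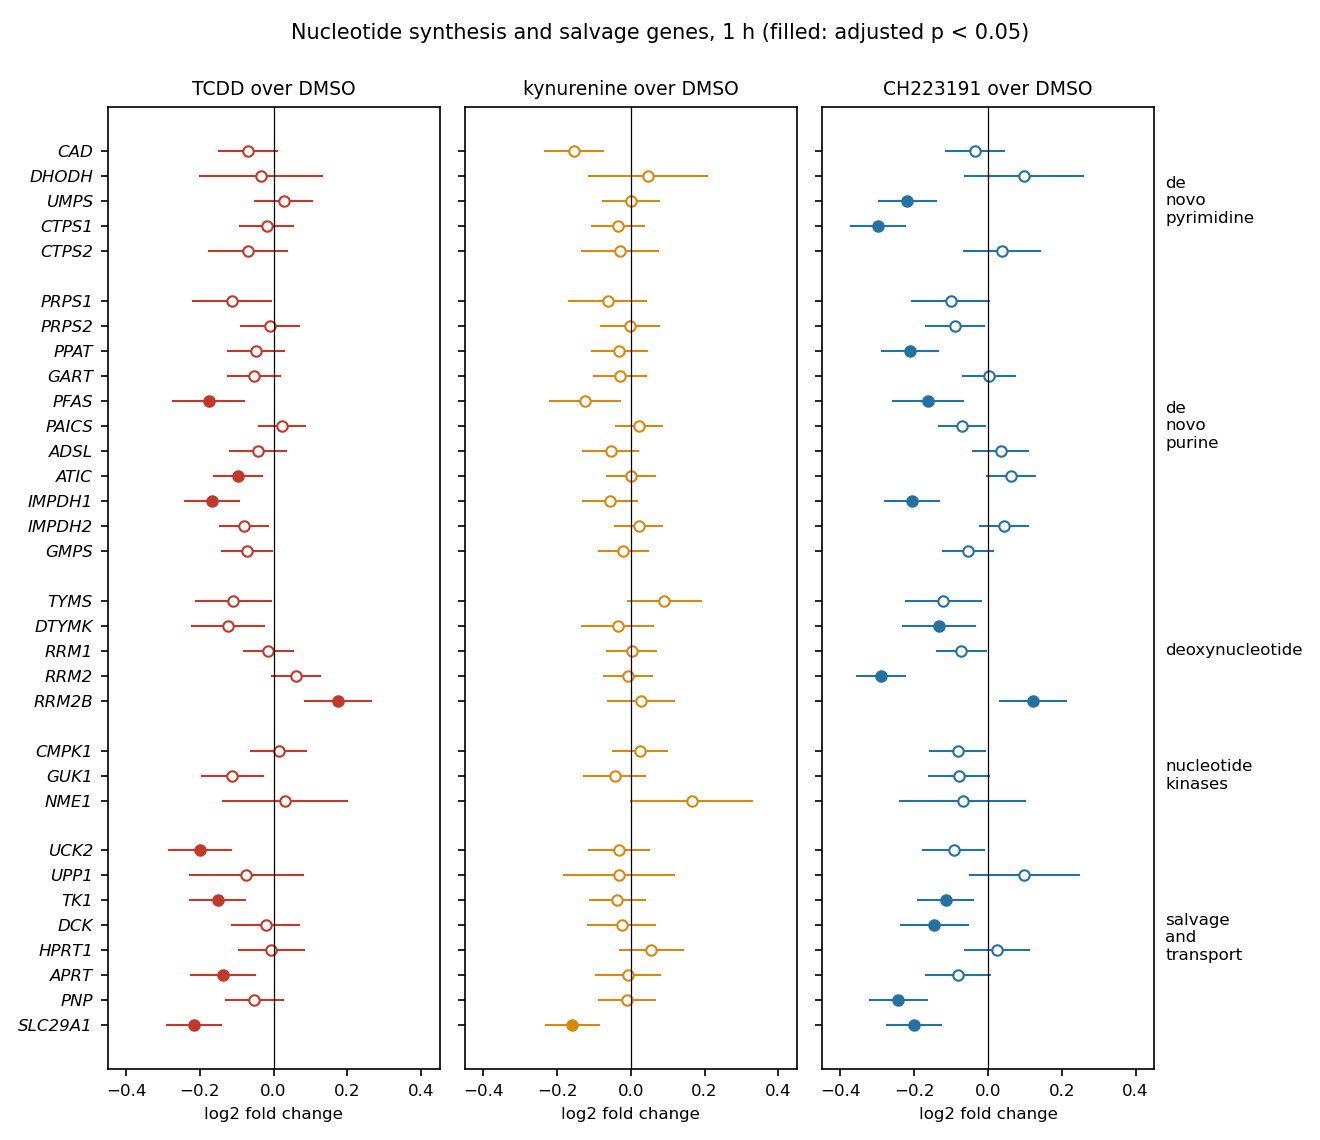
Log2 fold change over DMSO of the 32 genes, by class from top to bottom, with TCDD (left), kynurenine (middle) and CH223191 (right). Points are edgeR estimates from 3 libraries per group with 95% confidence intervals, and filled points have an adjusted p under 0.05: 8 with TCDD, 1 with kynurenine and 12 with CH223191.

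In de novo pyrimidine synthesis, CH223191 lowered 2 of the 5 genes, and TCDD and kynurenine changed 0 of 5. With CH223191 that was 40%, against 16.9% of all genes called lower and 32.8% called either way. TCDD and kynurenine called 11.7 and 0.294% of all genes. At an unadjusted p under 0.05 there were 0 of 5 with TCDD and 1 of 5 with kynurenine, and DESeq2 called 0 with either. CTPS1 makes CTP from UTP. It had 113, 112 and 112 CPM with CH223191, against 137, 140 and 138 CPM in DMSO. The groups were well apart, and the TCDD libraries (138, 136 and 135 CPM) and kynurenine libraries (138, 138 and 128 CPM) lay at or near the DMSO levels. Its log2 fold change with CH223191 was -0.30 ± 0.036 (SE; adjusted p = 3.6e-08, n = 3 libraries each), a fall of 18.7%. UMPS, which completes UMP, had 72.3, 72.6 and 72 CPM with CH223191, against 82.8, 83.8 and 85.7 CPM in DMSO. With TCDD it stood at 87.3, 85 and 85 CPM and with kynurenine at 86.9, 82.1 and 83.5 CPM, so only the CH223191 libraries stood apart. Its log2 fold change with CH223191 was -0.22 ± 0.038 (SE; adjusted p = 2.91e-05).

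CAD, the multifunctional enzyme that starts the pathway, had 229, 228 and 232 CPM with TCDD, 206, 224 and 220 CPM with kynurenine and 242, 246 and 218 CPM with CH223191, against 240, 248 and 236 CPM in DMSO. The kynurenine libraries all lay below the DMSO libraries, and the log2 fold change of -0.15 (SE 0.039) missed the threshold (adjusted p = 0.0852). That p was 0.0282 without CH223191 replicate 3, which lies in neither group. CTPS2, the paralog of CTPS1, had log2 fold changes of -0.07 with TCDD, -0.03 with kynurenine and 0.04 with CH223191 (adjusted p = 0.432, 0.964 and 0.611). DHODH, the mitochondrial enzyme that makes orotate, had log2 fold changes of -0.03, 0.05 and 0.10 (adjusted p = 0.853, 0.962 and 0.365).

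In de novo purine synthesis, TCDD and CH223191 each lowered 3 of the 11 genes, PFAS and IMPDH1 in both cases, with ATIC added by TCDD and PPAT by CH223191. For each compound that was 27.3%, against 5.83% of all genes called lower with TCDD and 16.9% with CH223191. Called either way were 11.7% of all genes with TCDD and 32.8% with CH223191, so the CH223191 share called was below the background. Kynurenine changed 0 of 11 by edgeR and by DESeq2, with 1 at an unadjusted p under 0.05. PPAT catalyses the committed step of the pathway. It had 98.7, 95.8 and 94 CPM with CH223191, against 111, 114 and 110 CPM in DMSO, with no overlap (log2 fold change -0.21 ± 0.038 SE, adjusted p = 3.34e-05). With TCDD it had 110, 104 and 110 CPM and with kynurenine 112, 109 and 106 CPM. PAICS, its neighbour across the 125-base gap, carries out 2 middle steps. It had 428, 427 and 444 CPM with CH223191, against 452, 454 and 457 CPM in DMSO. These libraries did not overlap either, and the difference of -0.07 (log2) did not pass the test (adjusted p = 0.0812; 0.0414 by DESeq2).

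PFAS, which uses glutamine at a middle step, was low with both TCDD and CH223191. It had 63.7, 67.7 and 70.7 CPM with TCDD, 69.6, 72.1 and 67.7 CPM with kynurenine and 72.9, 68.1 and 62.3 CPM with CH223191, against 76.5, 74.6 and 77 CPM in DMSO. All 9 treated libraries lay below the 3 DMSO libraries. The log2 fold change was -0.18 ± 0.047 (SE) with TCDD (adjusted p = 0.0112) and -0.16 ± 0.047 with CH223191 (adjusted p = 0.00671), while -0.12 with kynurenine did not pass (adjusted p = 0.532). ATIC, which closes the purine ring to IMP, had 234, 224 and 234 CPM with TCDD, 248, 248 and 244 CPM with kynurenine and 257, 263 and 253 CPM with CH223191, against 248, 246 and 246 CPM in DMSO. The TCDD libraries lay below and the CH223191 libraries above those in DMSO. The fall with TCDD passed the test (log2 fold change -0.10 ± 0.032 SE, adjusted p = 0.0432), and the value of 0.06 with CH223191 did not (adjusted p = 0.138).

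IMPDH1 and IMPDH2 catalyse the same rate-limiting step from IMP towards GMP. IMPDH1 had 102, 107 and 106 CPM with TCDD, 115, 113 and 112 CPM with kynurenine and 101, 104 and 101 CPM with CH223191, against 121, 117 and 116 CPM in DMSO. Its log2 fold change was -0.17 ± 0.036 (SE) with TCDD (adjusted p = 0.00188) and -0.21 ± 0.036 with CH223191 (adjusted p = 2.85e-05). IMPDH2, the more abundant form per transcript length, had 351, 341 and 349 CPM with TCDD, 380, 370 and 367 CPM with kynurenine and 390, 376 and 367 CPM with CH223191, against 369, 363 and 367 CPM in DMSO. Its TCDD libraries lay below the other 9, and its log2 fold changes over DMSO were -0.08, 0.02 and 0.04 (adjusted p = 0.107, 0.958 and 0.319). The other members of the class passed in no comparison with DMSO: PRPS1 and PRPS2, which make the activated ribose, and GART, ADSL and GMPS had log2 fold changes between -0.11 and 0.03. IMPDH2 and ADSL overlap other transcripts that are not counted in the files, so how the counting treated those shared reads is not known.

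Among the deoxynucleotide genes, the calls with CH223191 were RRM2 and DTYMK lower and RRM2B higher, and the only call with TCDD was RRM2B higher. With CH223191 60% of these 5 genes were called, against 32.8% of all genes, and with TCDD 20%, against 11.7%. RRM2 and RRM2B are alternative small subunits of ribonucleotide reductase: RRM2 is the S-phase form, and RRM2B serves outside S phase. RRM2 had 686, 670 and 710 CPM with TCDD, 658, 666 and 647 CPM with kynurenine and 533, 542 and 545 CPM with CH223191, against 668, 641 and 673 CPM in DMSO. The CH223191 libraries lay far below the other 9, with a log2 fold change of -0.29 ± 0.032 (SE; adjusted p = 5.01e-09), a fall of 18.2%. With TCDD the value was 0.06 (adjusted p = 0.231) and with kynurenine -0.01 (adjusted p = 0.997). RRM2B had 62.5, 60.2 and 66.3 CPM with TCDD, 54.8, 58 and 58 CPM with kynurenine and 62.5, 60.1 and 59.6 CPM with CH223191, against 55.3, 56.8 and 55.5 CPM in DMSO. The TCDD and CH223191 libraries all lay above the DMSO libraries, with log2 fold changes of 0.17 ± 0.044 (SE; adjusted p = 0.00669) with TCDD and 0.12 ± 0.044 with CH223191 (adjusted p = 0.0301).

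DTYMK, the thymidylate kinase, had 96.6, 97.8 and 103 CPM with CH223191, against 116, 100 and 110 CPM in DMSO. These groups overlapped, and its log2 fold change of -0.13 ± 0.048 (SE) passed narrowly (adjusted p = 0.0307). It did not pass by DESeq2 (adjusted p = 0.0502), with library totals alone (0.0828) or with genes at 5 CPM or more in 3 libraries (0.0506). DTYMK had 96.6, 107 and 95.9 CPM with TCDD and 113, 101 and 105 CPM with kynurenine. The TCDD log2 fold change of -0.12 missed the threshold (adjusted p = 0.0969). It was called in 1 of 8 alternatives and in 3 of 12 fits without 1 library. TCDD over CH223191 was 0.01 (adjusted p = 0.885), so these compounds were not told apart for DTYMK. TYMS, thymidylate synthase, had 42.3, 40.2 and 39.4 CPM with TCDD, 50.4, 44.2 and 45.3 CPM with kynurenine and 39.6, 41.3 and 39.9 CPM with CH223191, against 44.4, 42.3 and 44.7 CPM in DMSO. The TCDD and CH223191 libraries lay below those in DMSO, without passing the test (log2 fold change -0.11, adjusted p = 0.171, and -0.12, adjusted p = 0.0596). ENOSF1, on the opposite strand, overlaps 39.94% of the exonic length of TYMS, and whether the counting used strand is not stated. ENOSF1 was higher with CH223191 (log2 fold change 0.23, adjusted p = 0.044). RRM1, the large subunit of the reductase, had log2 fold changes of -0.01, 0.0020 and -0.07 with TCDD, kynurenine and CH223191 (adjusted p = 0.841, 0.998 and 0.0852).

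**Figure D2:**
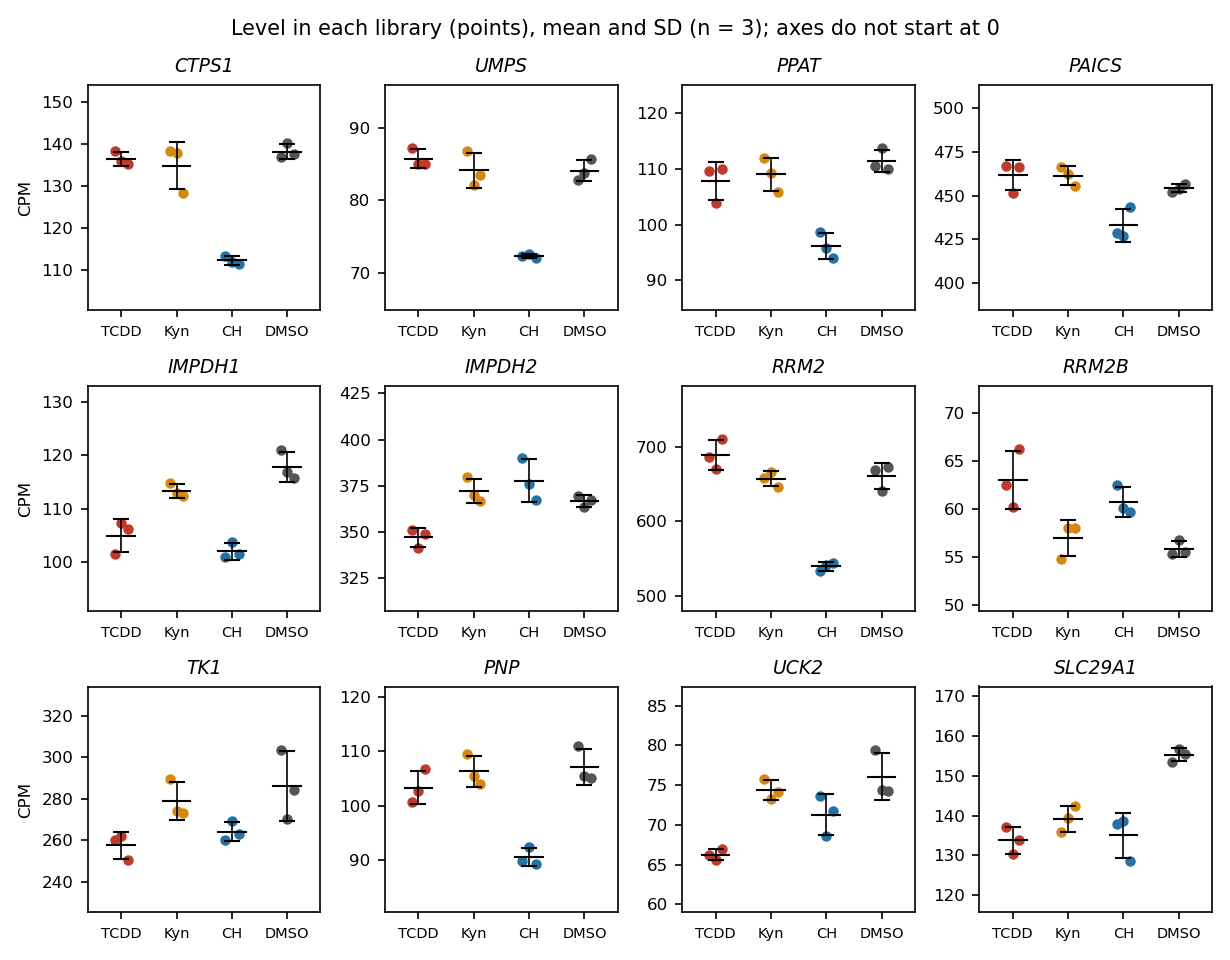
CPM in each of the 12 libraries, TCDD, kynurenine, CH223191 and then DMSO from left to right, for 12 members, with bars at the group mean and SD and axes that do not start at 0. RRM2, CTPS1, UMPS, PPAT and PNP are low in the CH223191 libraries, SLC29A1 is below DMSO in all 9 treated libraries, and UCK2 is lowest in the TCDD libraries.

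Of the 3 nucleotide kinases, 0 passed in any comparison with DMSO by edgeR or DESeq2, although 1 had an unadjusted p under 0.05 with each compound. By edgeR, 11.7, 0.294 and 32.8% of all genes were called with TCDD, kynurenine and CH223191. GUK1, the GMP kinase, had a log2 fold change of -0.11 with TCDD (adjusted p = 0.0695) and -0.08 with CH223191 (adjusted p = 0.133). CMPK1, the UMP and CMP kinase, had -0.08 with CH223191 (adjusted p = 0.0835). NME1, a nucleoside diphosphate kinase, had 0.16 with kynurenine (adjusted p = 0.744) and ranged from 23.5 to 36.8 CPM over the 12 libraries. A readthrough transcript that joins NME1 to NME2 shares exons with it and is listed at 0 reads, so the level of NME1 is uncertain.

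The salvage and transport class had 4 of its 8 genes lower with TCDD and 4 of 8 lower with CH223191, of which TK1 and SLC29A1 were in both sets. Each share was 50%, against 5.83% of all genes called lower with TCDD and 16.9% with CH223191. SLC29A1 encodes ENT1, the main equilibrative carrier of nucleosides across the plasma membrane. It had 137, 130 and 134 CPM with TCDD, 136, 140 and 142 CPM with kynurenine and 138, 139 and 128 CPM with CH223191, against 154, 157 and 156 CPM in DMSO. All 9 treated libraries lay below the 3 DMSO libraries, and those libraries are shared by the 3 comparisons. The log2 fold change was -0.22 ± 0.036 (SE) with TCDD (adjusted p = 7.65e-05), -0.16 ± 0.036 with kynurenine (adjusted p = 0.0354) and -0.20 ± 0.036 with CH223191 (adjusted p = 4e-05). The differences between the compounds did not pass the test, at -0.06 for TCDD over kynurenine (95% interval -0.13 to 0.02), -0.01 for TCDD over CH223191 (-0.09 to 0.06) and 0.04 for kynurenine over CH223191 (-0.03 to 0.12).

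UCK2, the uridine and cytidine kinase, had 66.2, 65.5 and 67 CPM with TCDD, 75.8, 73.2 and 74.1 CPM with kynurenine and 73.6, 68.6 and 71.7 CPM with CH223191, against 79.5, 74.4 and 74.3 CPM in DMSO. The TCDD libraries were the lowest of all, with a log2 fold change of -0.20 ± 0.041 (SE; adjusted p = 0.0011), while -0.09 with CH223191 did not pass (adjusted p = 0.0772). TMCO1, on the opposite strand, overlaps 2.03% of the exonic length of UCK2 and was lower with CH223191 (log2 fold change -0.18, adjusted p = 0.000409). TK1, the cytosolic thymidine kinase, had 260, 262 and 250 CPM with TCDD, 290, 274 and 273 CPM with kynurenine and 260, 269 and 263 CPM with CH223191, against 304, 270 and 284 CPM in DMSO. Its groups lay close to the lowest DMSO library, with log2 fold changes of -0.15 ± 0.037 (SE) with TCDD (adjusted p = 0.00527) and -0.12 ± 0.037 with CH223191 (adjusted p = 0.0152). APRT, which salvages adenine, had 110, 117 and 106 CPM with TCDD, against 127, 115 and 125 CPM in DMSO. The groups overlapped, and the fall of 0.14 on the log2 scale had an SE of 0.043 (adjusted p = 0.0312).

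PNP, which splits purine nucleosides into base and sugar phosphate, had 89.8, 92.4 and 89.2 CPM with CH223191, against 111, 105 and 105 CPM in DMSO. Its TCDD libraries stood at 101, 103 and 107 CPM and its kynurenine libraries at 110, 105 and 104 CPM, so the CH223191 libraries alone lay below all others (log2 fold change -0.24 ± 0.038 SE, adjusted p = 5.05e-06). DCK, the deoxycytidine kinase, had 51.9, 50.5 and 50.2 CPM with CH223191, against 57.7, 58.4 and 52.8 CPM in DMSO (log2 fold change -0.15 ± 0.045 SE, adjusted p = 0.0112). MOB1B, a gene on the same strand that overlaps 6.41% of the exonic length of DCK, was higher with CH223191 (log2 fold change 0.20, adjusted p = 0.00265). HPRT1, which salvages hypoxanthine and guanine, had log2 fold changes of -0.01, 0.06 and 0.03 with TCDD, kynurenine and CH223191 (adjusted p = 0.954, 0.901 and 0.686). UPP1, uridine phosphorylase, had -0.07, -0.03 and 0.10 (adjusted p = 0.593, 0.979 and 0.321).

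The calls differed in how far they rested on single libraries. With TCDD, IMPDH1, UCK2 and SLC29A1 passed in 12 of 12 fits that left out 1 library. PFAS no longer passed without TCDD replicate 1 (adjusted p = 0.104) or DMSO replicate 3 (0.0513), RRM2B without TCDD replicate 3 (0.102), and TK1 without DMSO replicate 1 (0.0846) or TCDD replicate 3 (0.0501). APRT failed without TCDD replicate 1 or 3 or DMSO replicate 1 or 3 (adjusted p = 0.0939 to 0.216). ATIC failed with library totals alone (adjusted p = 0.0515) and in 9 of 12 fits without 1 library, without any one TCDD or DMSO library, kynurenine replicate 2 or CH223191 replicate 1 or 2 (adjusted p = 0.0525 to 0.179). The kynurenine call of SLC29A1 failed in 8 of 12, without any one kynurenine or DMSO library, TCDD replicate 1 or CH223191 replicate 2 (adjusted p = 0.0592 to 0.163). With CH223191, UMPS, CTPS1, PPAT, IMPDH1, RRM2, PNP and SLC29A1 passed in all 12. PFAS failed without CH223191 replicate 3 (adjusted p = 0.0812), TK1 without CH223191 replicate 1 (0.0673) or DMSO replicate 1 (0.165) and with library totals alone (0.052), and DCK without DMSO replicate 1 (0.0524) or 2 (0.069). DTYMK failed without CH223191 replicate 1 or 2 or DMSO replicate 1 or 3 (adjusted p = 0.0864 to 0.233), and RRM2B without CH223191 replicate 1 or DMSO replicate 1 or 3 (adjusted p = 0.0811 to 0.133).

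GC content moved with the TCDD calls. The longest transcripts of the 7 genes lower with TCDD had a median GC content of 58.2% (49.7 to 63.2%), RRM2B, the higher gene, had 35.1%, and the 24 uncalled members had a median of 46.1%. Over all genes, those lower with TCDD had a median of 57.9% and those higher 42.8%. When trends on GC content and transcript length were removed from each library, UCK2 (adjusted p = 0.000256) and SLC29A1 (adjusted p = 0.00467) remained lower. PFAS (0.0541), ATIC (0.101), IMPDH1 (0.151), RRM2B (0.108), TK1 (0.365) and APRT (0.715) no longer passed, and PPAT (0.0242) and GMPS (0.000204) were then called lower. With CH223191 the 11 lower members had a median GC content of 47.8%, against 47.5% for the 20 uncalled ones, and 12 of 12 calls held after that correction, with 18 members lower in all. Of all genes, that correction left 36% called with CH223191, against 32.8% without it, and 8.16% with TCDD, against 11.7%. How far GC content accounts for the TCDD values was not tested.

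**Figure D3:**
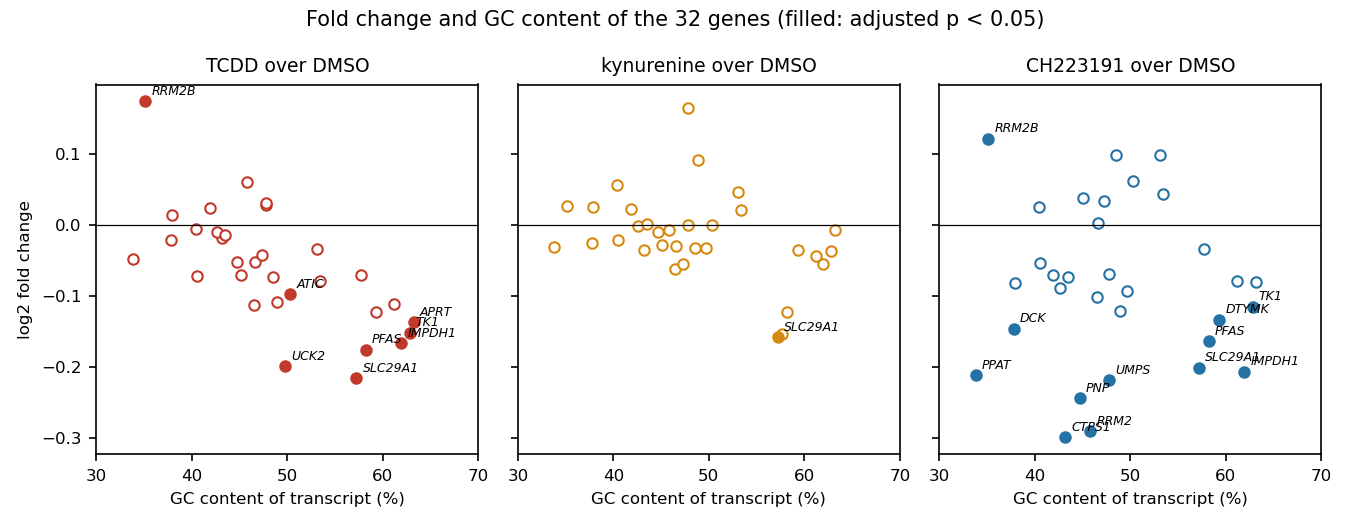
Log2 fold change over DMSO of the 32 genes against the GC content of the longest transcript in percent, with TCDD (left), kynurenine (middle) and CH223191 (right); filled points have an adjusted p under 0.05. The 7 genes lower with TCDD lie at 49.7% GC or above, while the 11 lower with CH223191 span 33.8 to 62.8%.

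Compared directly, TCDD and CH223191 gave different levels for 11 of the 32 genes, 8 higher and 3 lower with TCDD, or 34.4% against 37.1% of all genes, which is near the background (25% higher against 19%, and 9.38% lower against 18.1%). The libraries of the 2 groups did not overlap for 14 members, against 47.3% of all genes. With libraries scaled by their totals alone the split was 5 higher and 5 lower. The 8 higher with TCDD were UMPS, CTPS1, PPAT, PAICS, RRM2, CMPK1, DCK and PNP. RRM2 had the largest difference (log2 0.35 ± 0.032 SE, adjusted p = 4.04e-11), followed by CTPS1 (0.28 ± 0.036, adjusted p = 1.09e-07) and UMPS (0.25 ± 0.039, adjusted p = 3.93e-06). The 3 lower with TCDD were ATIC (-0.16, adjusted p = 0.000166), IMPDH2 (-0.12, adjusted p = 0.00271) and UCK2 (-0.11, adjusted p = 0.0442). For genes called lower with both compounds, the direct difference did not pass: it was -0.01 for PFAS (95% interval -0.11 to 0.08), 0.04 for IMPDH1 (-0.03 to 0.12) and -0.04 for TK1 (-0.11 to 0.04). UMPS, CTPS1, PPAT, ATIC, IMPDH2, RRM2 and PNP passed in all 12 fits without 1 library. PAICS, CMPK1, UCK2 and DCK failed in 4 to 6 of the 12, without single TCDD or CH223191 libraries or, for CMPK1, also kynurenine replicate 3 (highest adjusted p = 0.0905, 0.207, 0.194 and 0.104). PAICS (adjusted p = 0.177), CMPK1 (0.207) and DCK (0.131) also failed with GC and length trends removed.

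Kynurenine over CH223191 gave 11 higher genes and 1 lower, 37.5% against 33% of all genes, with 16.6% of all genes higher and 16.4% lower, and 7 higher and 4 lower with totals alone. The libraries did not overlap for 18 members, against 43.5% of all genes. The 11 were UMPS, CTPS1, PPAT, PAICS, IMPDH1, TYMS, RRM2, CMPK1, NME1, DCK and PNP, with the smallest p-values for RRM2 (log2 0.28 ± 0.032 SE, adjusted p = 9.23e-09), CTPS1 (0.26, adjusted p = 4.27e-07) and PNP (0.23, adjusted p = 1.04e-05). DESeq2 did not call NME1 (adjusted p = 0.233) or DCK (0.0535). CAD was lower with kynurenine than with CH223191 (log2 -0.12 ± 0.039 SE, adjusted p = 0.0158). Without kynurenine replicate 1, CAD (adjusted p = 0.0865), CMPK1 (0.0999), DCK (0.156), NME1 (0.112) and PAICS (0.0504) failed, and each of these also failed without 1 or more other kynurenine or CH223191 libraries, while the other 7 passed in all 12 fits.

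TCDD over kynurenine gave 7 calls, 21.9% against 9.19% of all genes, with 6 lower (18.8%, against 4.09% of all genes) and 1 higher (3.12%, against 5.1%). The libraries of these groups did not overlap for 10 members, against 26% of all genes. TYMS (log2 -0.20 ± 0.05 SE, adjusted p = 0.00784), UCK2 (-0.17, adjusted p = 0.00707), APRT (-0.13, adjusted p = 0.0499), TK1 (-0.12, adjusted p = 0.0433), IMPDH1 (-0.11, adjusted p = 0.0492) and IMPDH2 (-0.10, adjusted p = 0.0421) were lower and RRM2B was higher (0.15, adjusted p = 0.028). With GC and length trends removed, 5 of these 7 no longer passed: IMPDH1 (adjusted p = 0.6), IMPDH2 (0.342), RRM2B (0.284), TK1 (0.74) and APRT (0.805). Of the 7, UCK2 passed in all 12 fits without 1 library and IMPDH1 in 2. Without TCDD replicate 3, 6 of the 7 failed, all but UCK2 (adjusted p = 0.0608 to 0.283), and the same 6 failed without kynurenine replicate 1 (0.125 to 0.246). A joint test of the 4 groups was passed by 19 of the 32, against 43.6% of all genes.

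Summed within a class, the deoxynucleotide genes held the clearest separation of CH223191. Their sum was 1435 ± 27.9 CPM with TCDD, 1415 ± 13.1 CPM with kynurenine and 1261 ± 12.1 CPM with CH223191, against 1417 ± 28.3 CPM in DMSO (SD, n = 3 each), and RRM2 and RRM1 make up most of it. RRM2 was called lower with CH223191, while RRM1 was not (adjusted p = 0.0852), so this separation largely restates RRM2. The salvage and transport genes summed to 820.5 ± 10.7 CPM with TCDD, 872.6 ± 21.2 CPM with kynurenine and 823.9 ± 6.54 CPM with CH223191, against 897.3 ± 27.9 CPM in DMSO. The de novo pyrimidine genes summed to 499.1 ± 2.6, 484.7 ± 7.84 and 470.8 ± 17.5 CPM with TCDD, kynurenine and CH223191, against 512.7 ± 9.08 CPM in DMSO. The salvage libraries of TCDD and of CH223191 all lay below those of DMSO, as did all 9 treated libraries for the pyrimidine genes. The de novo purine genes summed to 1950 ± 34.3, 2014 ± 22.8 and 1975 ± 20.7 CPM with TCDD, kynurenine and CH223191, against 2028 ± 7.07 CPM in DMSO. Here too the TCDD libraries (1911 to 1973 CPM) and CH223191 libraries (1951 to 1989 CPM) all lay below those of DMSO (2020 to 2034 CPM). The kynurenine libraries (1991 to 2037 CPM) overlapped them. The kinases summed to 281.3 ± 5.03, 290.7 ± 11 and 273.4 ± 12.7 CPM, against 288.6 ± 6.21 CPM in DMSO. These sums weigh abundant genes most and were not tested.

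**Figure D4:**
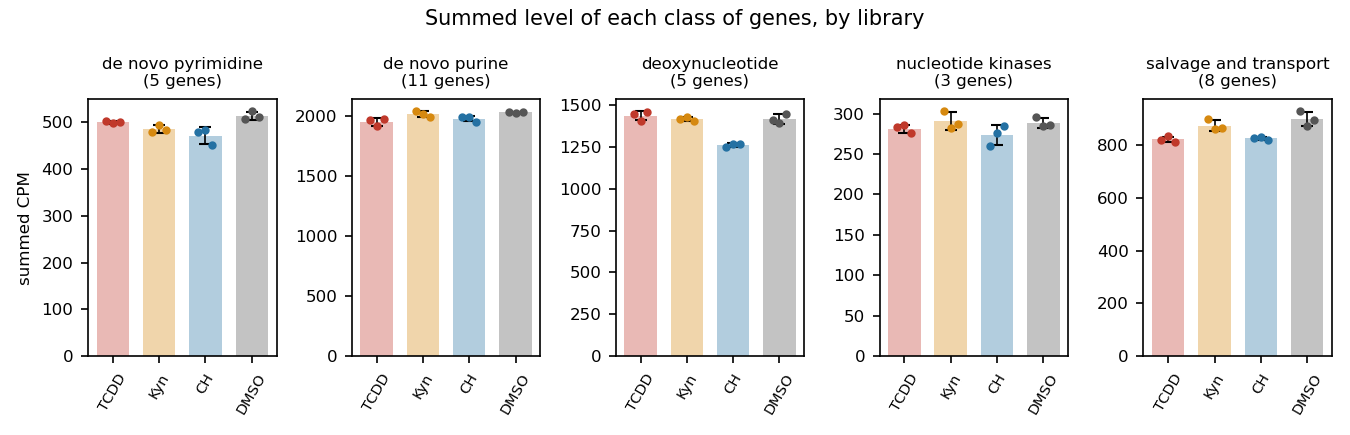
Summed CPM of each class in the 12 libraries, with TCDD, kynurenine, CH223191 and DMSO from left to right, points for libraries and bars for group means. The deoxynucleotide sum is 1247 to 1268 CPM in the CH223191 libraries and at least 1392 CPM in the other 9.

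The members spanned a wide range of levels in DMSO. Per kilobase of the main transcript, IMPDH2 was highest at 222 ± 1.9 CPM, followed by RRM2 at 203 ± 5.31, TK1 at 200 ± 11.7 and RRM1 at 174 ± 6.23 CPM per kilobase (SD, n = 3). RRM2 and TK1 differed by less than their SDs. GUK1 at 133 ± 6.5, APRT at 131 ± 7.09 and ATIC at 125 ± 0.718 CPM per kilobase came next, and APRT differed from each of the other two by less than its own SD. The lowest were RRM2B at 11.7 ± 0.171, UPP1 at 9.64 ± 0.938, CTPS2 at 9.55 ± 0.62 and DHODH at 2.45 ± 0.11 CPM per kilobase. Within paralog pairs on the same scale, RRM2 stood far above RRM2B, CTPS1 (48.7 ± 0.612) above CTPS2, IMPDH2 above IMPDH1 (45.1 ± 1.05), and PRPS2 (41.7 ± 0.846) above PRPS1 (14.5 ± 0.495).

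**Figure D5:**
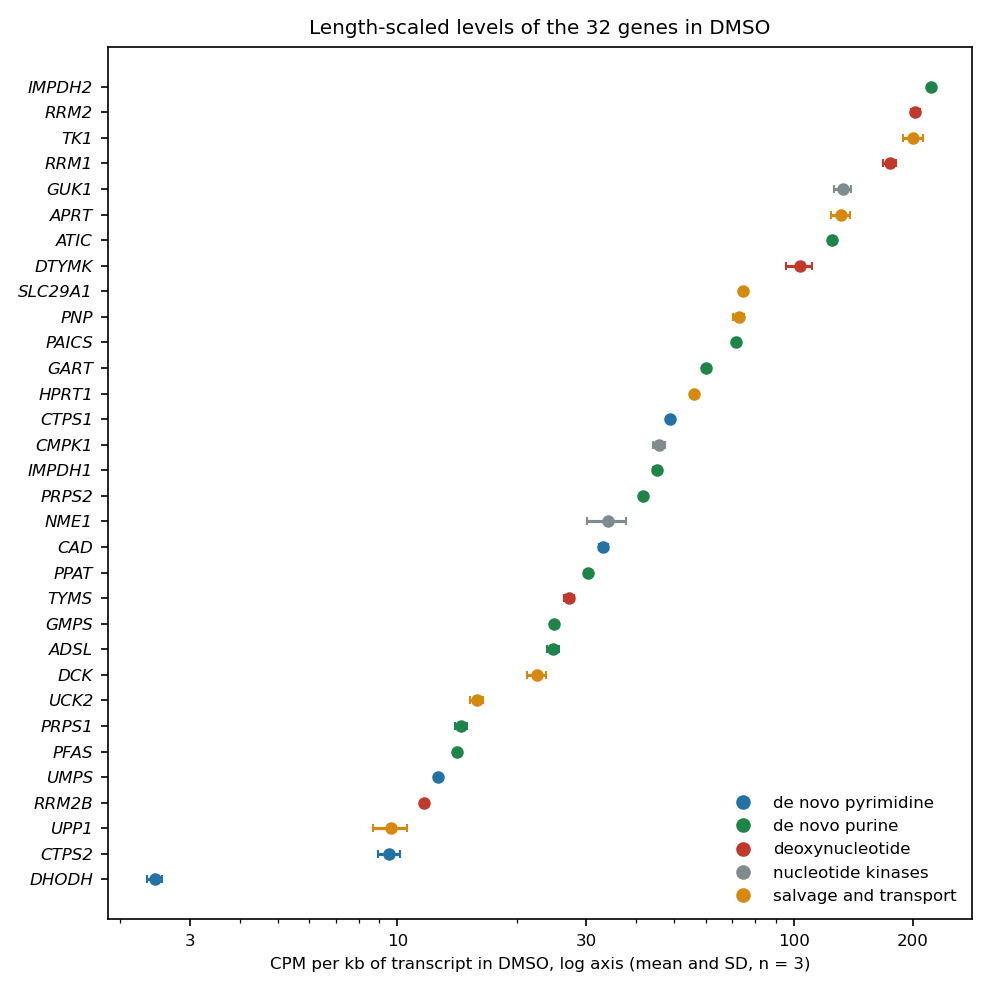
Level of each of the 32 genes in the 3 DMSO libraries in CPM per kilobase of the main transcript, on a log axis, ordered from highest to lowest. IMPDH2 is highest at 222 and DHODH lowest at 2.45 CPM per kilobase.

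Neighbouring pathways were counted from lists drawn up beside the members. Of 11 measured genes of folate one-carbon supply, which feeds purine and thymidylate synthesis, 5 rose (45.5%, against 15.9% of all genes) and 1 fell (9.09%, against 16.9%) with CH223191. MTHFD2, a mitochondrial folate enzyme, stood at 480 ± 8.57 CPM, against 258 ± 2.8 CPM in DMSO (log2 fold change 0.90 ± 0.032 SE, adjusted p = 1.01e-22). SHMT2 (0.50, adjusted p = 4.38e-14) and MTHFD1L (0.51, adjusted p = 1.44e-13) rose as well, and SLC19A1, the reduced folate carrier, fell (-0.42, adjusted p = 4.3e-09). ATF4, the stress-response factor for which MTHFD2 and SHMT2 are known targets, had a log2 fold change of 0.93 (adjusted p = 2.15e-21). Among 17 regulators, 5 rose (29.4%) and 4 fell (23.5%) with CH223191, against the same 15.9 and 16.9% of all genes. E2F1 (-0.33, adjusted p = 9.82e-07) and E2F3 (-0.25, adjusted p = 1.59e-05), activators of S-phase genes that include RRM2, TK1 and TYMS, were both lower. E2F4 was lower as well (-0.20 to -0.16 over the alternatives, DESeq2 adjusted p = 3.37e-05). E2F2, on the same list, was not called with CH223191, and TYMS did not pass either (adjusted p = 0.0596). Whether the E2F genes account for the member values was not tested.

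The other wider lists with CH223191 were mixed, and of all genes 32.8% were called. Of 7 nucleoside and nucleotide transporters, 3 rose and 2 fell (71.4% called), with rises in the nucleoside carriers SLC28A3 (log2 fold change 1.01, adjusted p = 0.000373, at 18 to 71 reads per library) and SLC29A3 (0.41, adjusted p = 3.54e-05) and the mitochondrial carrier SLC25A36 (0.31, adjusted p = 1.01e-06). Of 16 genes of nucleotide breakdown and pool cleaning, 2 rose and 4 fell (37.5% called, near the share of all genes), with GDA, guanine deaminase (-0.29, adjusted p = 8.47e-08), DCTPP1 (-0.27, adjusted p = 1.72e-06) and NT5C3A (-0.21, adjusted p = 0.000372) among the falls. Of 11 other salvage genes, 1 rose and 2 fell (27.3% called), with MTAP lower (-0.18, adjusted p = 0.000654). Of 20 genes of purine branching and interconversion, 1 rose and 3 fell (20% called; 0 and 1 by DESeq2), with AMPD2, an AMP deaminase, lowest (-0.38, adjusted p = 1.25e-08).

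With TCDD, GDA went the other way. It stood at 210 ± 7.69 CPM with TCDD, 170 ± 5.32 CPM with kynurenine and 114 ± 0.687 CPM with CH223191, against 140 ± 1.34 CPM in DMSO, and the 4 groups did not overlap. Its log2 fold change was 0.59 ± 0.035 (SE) with TCDD (adjusted p = 3.56e-15) and 0.29 ± 0.035 with kynurenine (adjusted p = 3.53e-06). DCTPP1 (-0.16, adjusted p = 0.00563) and DUT (-0.14, adjusted p = 0.0208), which clear unwanted nucleotides, fell with TCDD, so the breakdown list had 1 gene higher (6.25%, against 5.91% of all genes) and 2 lower (12.5%, against 5.83%) of 16. The folate list had 4 lower of 11 with TCDD (36.4%, against 5.83% of all genes): FPGS (-0.19, adjusted p = 0.0111), SLC19A1 (-0.16, adjusted p = 0.0173), MTHFD1L (-0.14, adjusted p = 0.0158) and SHMT2 (-0.11, adjusted p = 0.0288). Of these, FPGS, SLC19A1, SHMT2 and DCTPP1 did not pass once GC and length trends were removed (adjusted p = 0.259, 0.21, 0.364 and 0.0993). All 4 folate genes, DUT and DCTPP1 also failed without DMSO replicate 3 (adjusted p = 0.0524 to 0.113), and all of them but DCTPP1 without TCDD replicate 3 (0.0544 to 0.119).

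Of the 17 regulators, 17.6% were called with TCDD, against 11.7% of all genes. TCDD lowered MYC, which activates many nucleotide synthesis genes, to 144 ± 4.47 CPM, against 165 ± 4.17 CPM in DMSO (log2 fold change -0.20, adjusted p = 0.000414), and raised MXD4 (0.23, adjusted p = 0.00559). MYC was not called with CH223191, which lowered more members, and TCDD over CH223191 ran from -0.31 to -0.26 over the alternatives. Whether MYC accounts for the member values was not tested. SLC29A3 was the 1 of 7 transporters to change with TCDD (-0.35, adjusted p = 0.00279). By edgeR and by DESeq2, 0 of 11 other salvage genes and 0 of 20 purine interconversion genes passed with TCDD, with 1 in each list at an unadjusted p under 0.05. With kynurenine, GDA alone of these wider lists passed.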

How the data were processed

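Poly(A) RNA of DLD1 cells was sequenced in 12 libraries, 3 each of TCDD, kynurenine (Kyn in the labels), CH223191 (CH) and DMSO, grouped by their treatment labels. Per the submitters' processing notes, the authors used Trim Galore, STAR 2.7.2b on hg38, SAMtools 1.9 and HTSeq, and deposited unscaled read counts for each gene symbol. STAR 2.5.2b is named in the protocol text, and whether HTSeq used strand is not given in the sources used here.

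In R 4.3.3, edgeR 4.0.16 kept 13619 of 26485 symbols with filterByExpr (minimum count 10) and scaled libraries by total and TMM factors (0.988 to 1.02). All 12 libraries entered 1 quasi-likelihood fit with a term for each group, and each pair of groups, and the 4 groups jointly, were compared by F test with Benjamini-Hochberg adjustment over all genes tested, calls at an adjusted p under 0.05. The common biological coefficient of variation was 3.22%. CPM used the scaled totals, levels per kilobase the canonical transcript of GENCODE 44, where 23060 symbols matched, and intervals are 95%. Upstream windows came from RefSeq, whose GRCh38.p14 shares its coordinates with hg38. The procedure was tested on simulated counts.

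Alternatives tried were DESeq2 1.42.0, RLE factors in place of TMM, totals without factors, fits of the 2 groups alone, a filter of 5 CPM in 3 libraries or none, a replicate block, removal of GC and length trends (values for 91.9% of tested genes), and each library left out in turn. Members with a call against DMSO, or among the 16 smallest joint p, are given by library, and up to 4 genes of smallest p are named per wider list, of which some are not reported here. MOB1B, ENOSF1 and TMCO1 were named for their overlap, and E2F2 and E2F4 beside E2F1 and E2F3, after their values were seen. The members and lists were chosen with earlier results of these data known.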

Additional observations from a re-analysis of the deposited data

How the results depend on the processing

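Over all alternatives, 0 single-gene values called in the main fit or in the alternative reversed their sign between them. Values short of the threshold could do so: UMPS with TCDD over DMSO ran from -0.00468 to 0.0418 (log2). Counts of members have no sign, and 211 of them stayed within a set factor of the main count while 48 did not. Of the single-gene values, 6353 kept their side of the threshold, 389 lost it and 50 gained it. With GC and length trends removed, TCDD over DMSO gave 0 members higher and 4 lower, kynurenine over DMSO 2 lower, CH223191 over DMSO 18 lower, TCDD over kynurenine 0 higher and 3 lower (2 of the 7 calls held), and TCDD over CH223191 6 lower. Of all genes, 8.16, 0.514, 36, 6.84 and 38.8% were then called in either direction in these comparisons, in turn. With library totals alone, CH223191 over DMSO gave 2 higher and 9 lower, TCDD over kynurenine 2 lower, TCDD over CH223191 5 higher and 5 lower, and kynurenine over CH223191 7 higher and 4 lower. The shares of all genes called were then 32.4, 8.89, 37 and 33.1%, in turn. At 5 CPM in 3 libraries, kynurenine over CH223191 gave 3 lower, with 40.2% of all genes called. For kynurenine over DMSO, no low-count filter gave 2 lower, and the 2 groups alone gave 0, with 0.322 and 0.196% of all genes called. The cause of these shifts was not tested.

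With 1 library left out, TCDD over DMSO gave 0 to 1 member higher and 4 to 9 lower, kynurenine over DMSO 0 to 2 lower and CH223191 over DMSO 0 to 1 higher and 9 to 12 lower. The share of all genes called was then 5.83 to 13.9%, 0.218 to 0.319% and 25.5 to 34.4%, in turn. TCDD over kynurenine gave 0 to 1 higher and 1 to 7 lower, TCDD over CH223191 5 to 8 higher and 2 to 3 lower, kynurenine over CH223191 7 to 11 higher and 0 to 1 lower, and the joint test 16 to 20. Of all genes, 4.17 to 9.59%, 30 to 38.6% and 26 to 33% were called in these pairs of compounds, in turn. A left-out library leaves a group with 2.

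No pairing by replicate number was seen in the levels: deviations from the group mean correlated at -0.0554 to 0.0371 across 18 same-numbered pairs, and at -0.0528 to 0.0832 across 36 others. This cannot show whether libraries of the same number were handled together, which the labels do not say. The replicate block gave 0 lower members for kynurenine over DMSO, where SLC29A1 missed the threshold (adjusted p = 0.0577), and held 7 of 8 calls with TCDD and 12 of 12 with CH223191. With 3 libraries a group, changes of a few percent lie within the spread, and intervals cover these libraries alone.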
